A study of Mus musculus with 32 samples.

Results

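The libraries described here came from EL08-1D2, a clonal line of mouse stromal cells of embryonic liver origin, kept free of azacitidine. They were chosen by their treatment label alone and number 16 of the 32 libraries in the series. The other libraries came from the same line grown with azacitidine, a cytidine analogue that lowers DNA methylation, and no value from them is used. Every untreated library shares the same description in the labels, which give no passage number, culture vessel or date. Whether each library had a culture of its own is not stated in the labels, so the spread between them may be technical, and n = 16 holds for each value below unless another n is given. Polyadenylated RNA was measured, and the deposited table gives unique molecular identifier (UMI) counts, in which the copies of a molecule count once, for 21829 mouse genes. Levels are UMIs per 1000000 in a library (CPM), with the spike-in RNAs left out.

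Mesenchymal stromal cells build the connective tissue of an organ, lay down collagen and proteoglycans, and in blood-forming organs make the secreted and membrane-bound factors that keep haematopoietic cells in place. In the fetal liver, where blood is formed before birth, stromal cells express the chemokine Cxcl12, the adhesion molecule Vcam1 and the ligand of the Kit receptor. EL08-1D2 is known as a feeder line that maintains haematopoietic stem cells in culture.

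Libraries held between 818619 and 3210801 UMIs, with a median of 1619401, and 27338586 in all. A gene with no UMI in any of the 16 could still have a level of up to 0.110 CPM, the value of 3 counts in that total, and this limit covers counting error only. Between 13457 and 15834 genes had a UMI, and 13229 to 13476 when each library was thinned to 818619 UMIs. Pearson's r of log2(CPM + 1) over 7875 genes ran from 0.914, between replicates 1 and 9, to 0.988, between replicates 10 and 11, with a median of 0.971 over 120 pairs. Replicate 1 stood farthest apart (median r 0.949), and replicates 1 and 2 were each other's closest library (r 0.985). Replicate 4, the smallest library, came next to replicate 1 (median r 0.961), and replicate 2 followed at 0.964. Results on spread are therefore given with and without replicates 1 and 2. Libraries whose numbers fell in the same run of 4 (1 to 4, 5 to 8, 9 to 12 and 13 to 16) had a median r of 0.978 (24 pairs) against 0.969 for the other 96 pairs, and the labels do not say what the numbers stand for.

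**Figure D1:**
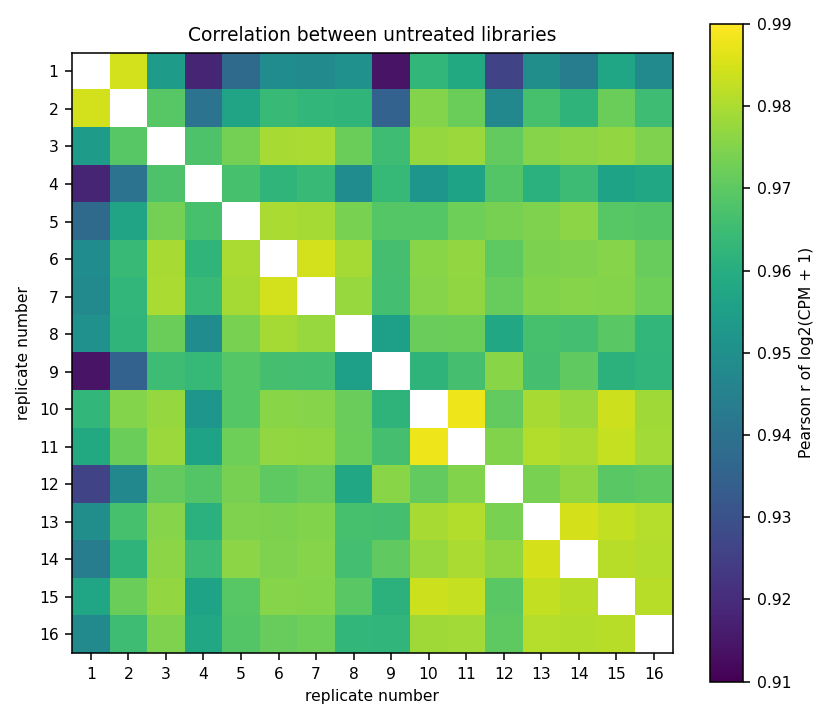
Pearson correlation of log2(CPM + 1) between each pair of the 16 untreated libraries, by replicate number, over genes with a mean of at least 10 CPM. Replicate 1 has the darkest row, down to 0.914 with replicate 9, and its brightest cell is with replicate 2.

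Galectin 1, ferritin and osteopontin led the transcriptome of the untreated line. Lgals1, which encodes a secreted lectin that binds galactose-containing glycans (ENSMUSG00000068220, chromosome 15, 78926725 to 78930465, mm10), lay between 13814 and 18229 CPM with a median of 16007, and its mean was 16052 ± 1198 CPM (SD). Fth1, the heavy chain of the iron store ferritin, ran from 9914 to 18601 CPM with a median of 14945. Spp1, which encodes the secreted phosphoprotein osteopontin (chromosome 5, 104435118 to 104441050), ran from 8476 in replicate 1 to 18460 in replicate 12 with a median of 14430. Lgals1 had the highest mean both by CPM and per kilobase of exon, but its range lay inside those of Fth1 and Spp1, so that the order of the 3 genes by CPM was not resolved. In replicate 12, for example, Spp1 had 18460 CPM and Lgals1 13814. Actb, the cytoplasmic actin, followed at 8725 ± 897 CPM.

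Lysosome and exosome proteins, glycolytic enzymes and matrix genes filled the next ranks. Cd63, a tetraspanin of late endosomes and exosomes, stood at 7025 ± 723 CPM, and Ctsb, a lysosomal cysteine protease, at 6007 ± 999. Aldoa and Pkm, enzymes of glycolysis, stood at 5474 ± 770 and 2953 ± 429 CPM. Malat1, a nuclear noncoding RNA, reached 5280 ± 1168 and Mt1, a metallothionein that binds zinc and copper, 4896 ± 678. Col3a1, the chain of the fibrillar type III collagen (ENSMUSG00000026043, chromosome 1, 45311538 to 45349706), was between 3536 and 5385 CPM with a median of 4485. Pcolce, whose product speeds the trimming of procollagens, had 4241 ± 379 CPM, close to Col3a1. Bsg, the matrix protease inducer basigin, the cytokine gene Mif and Hspa5, the main chaperone of the endoplasmic reticulum, followed at 3725 ± 838, 3109 ± 458 and 3011 ± 561 CPM. Among the 25 highest genes 5 encode ribosomal proteins, which are not described further, and 2 were mitochondrially encoded, mt-Cytb at 4187 ± 618 and mt-Nd1 at 2876 ± 374 CPM. Of the 14 mitochondrially encoded genes 11 reached 1 CPM, among them mt-Co1 at 1284 ± 254 and mt-Nd4 at 690 ± 83.0 CPM. The other 3 were mt-Co2, mt-Atp6 and mt-Co3 with 0, 1 and 4 UMIs. How reads of near-identical sequence were assigned was not checked, so these low counts do not show that the transcripts were absent. Gm15427, a processed pseudogene at 3494 ± 609 CPM, has a parent gene of near-identical sequence by its type, and its level is uncertain.

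**Figure D2:**
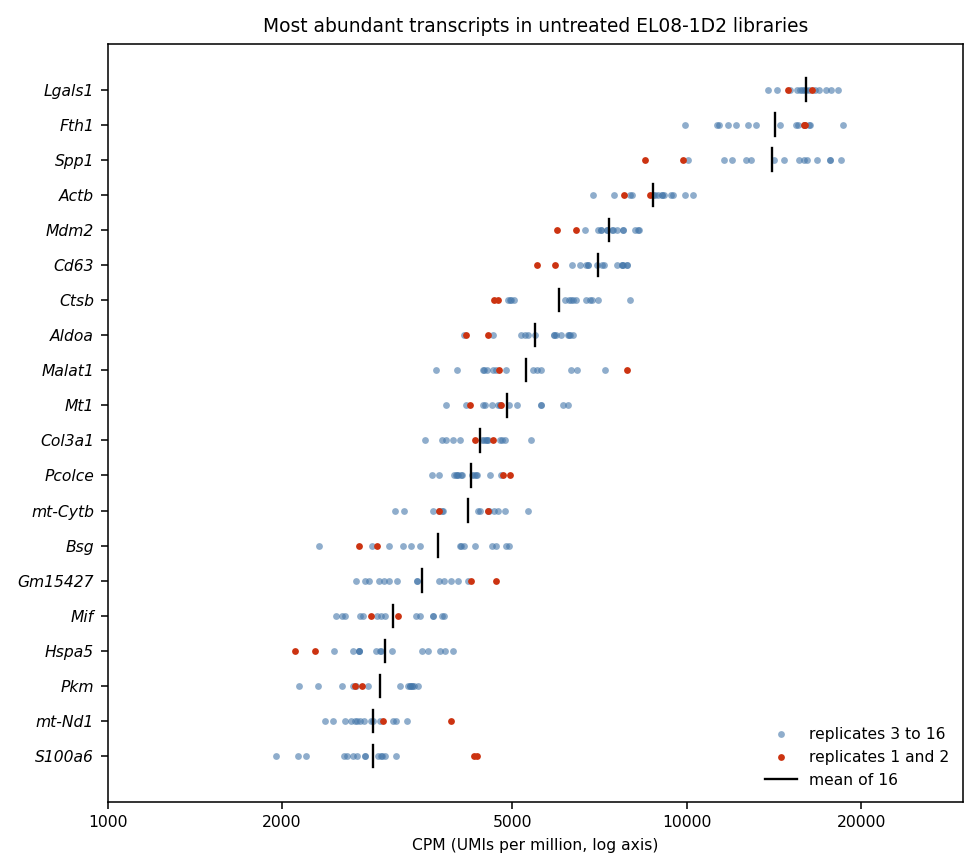
CPM (log axis) of the 20 genes among the 25 most abundant that do not encode ribosomal proteins. Points are libraries (red, replicates 1 and 2; blue, the other 14) and black bars are means; Lgals1, Fth1 and Spp1 have the highest means, and the red points of Spp1, Mdm2, Cd63 and Ctsb lie at or near the low end.

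The abundance was spread over many genes. The 10 highest genes took 8.99% ± 0.42 of the UMIs, the 100 highest 26.9% ± 0.98 and the 500 highest 49.8% ± 1.1. Ribosomal protein genes, 82 in the table, took 5.05% ± 0.73, from 4.12% in replicate 4 to 6.56% in replicate 1, and protein-coding genes 92.8% ± 0.54. Of the 25 highest genes 15 were also among the 25 highest per kilobase of exon and 22 among the 100 highest. A UMI is counted per molecule, and whether the protocol tagged the ends of transcripts only is not stated in the labels, so both scales are given where an order of genes matters. Of the 21829 genes 12785 (58.6%) reached a mean of 1 CPM and 7875 (36.1%) a mean of 10 CPM, which are the backgrounds for the counts below. At 100 CPM 2017 genes remained and at 1000 CPM 127, while 2238 genes had no UMI in any library. The median over all genes was 2.74 CPM.

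Mdm2 was the fifth gene in rank. It encodes the ubiquitin ligase that marks the tumour suppressor p53 for degradation and is itself a p53 target (ENSMUSG00000020184, chromosome 10, 117688875 to 117710758). Its level ran from 5960 CPM in replicate 1 to 8279 in replicate 9 with a median of 7354 (mean 7342 ± 639). No library fell below 5960 CPM, and the spread beyond counting error was 0.086 of the mean. Other genes of the p53 and cell cycle inhibitor list were far lower: Cdkn1a, the p53 target p21, had 254 ± 28.1 CPM, Ccng1, another target, 112, and Trp53 itself 69.5 ± 7.94. The inhibitors of the Ink4 group, Cdkn2b and Cdkn2a, stood at 132 and 121 CPM. Per kilobase of exon Mdm2 had 1444 CPM and ranked 39th of all genes. Its neighbours within 500 kb on chromosome 10 were looked at after the level of Mdm2 was seen, and none of them exceeded the 41.2 CPM per kilobase of Cpm. Cpm, the adjacent carboxypeptidase gene, had 246 ± 33.4 CPM, the nucleoporin gene Nup107 60.7 ± 9.99, the small GTPase gene Rap1b 37.2 ± 9.75, and Slc35e3, the next gene on the other side, 0.959 CPM (27 UMIs).

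None of the 5 marker genes taken for the labelled cell type was absent from any library. They were chosen with earlier results of these data known, so their presence is no test of the cell type. Lgals1, Spp1 and Col3a1 were among the 12 highest genes, and the remaining markers were lower but present in each library. Cxcl12, the chemokine that holds blood stem cells in their niche (ENSMUSG00000061353, chromosome 6, 117168535 to 117181367), ran from 548 to 996 CPM with a median of 785 (mean 768 ± 141). Vcam1, the adhesion molecule for blood cells that carry the integrin VLA-4 (ENSMUSG00000027962, chromosome 3, 116109949 to 116129688), ran from 171 to 288 CPM with a median of 216 (mean 225 ± 31.4).

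Of 22 surface proteins used to define mesenchymal stromal cells 14 reached 1 CPM, near the 58.6% of all genes. At 10 CPM there were 13, against 36.1% of all genes, and the median was 15.7 CPM. The tetraspanins Cd81 and Cd9 stood at 1223 ± 201 and 251 ± 19 CPM, and Ly6a, the stem cell antigen Sca-1, at 399 ± 73.2. Pdgfrb and Pdgfra, the receptors of platelet-derived growth factors, had 167 ± 35.8 and 61.9 ± 19.9 CPM, and Ncam1, a neural adhesion molecule that stromal cells also carry, 127 ± 19.6. The classical panel was uneven. Cd44, the hyaluronan receptor, had 85.1 CPM and Nt5e, the ectonucleotidase CD73, 15.6 ± 4.68, whereas Eng, the TGF-beta co-receptor CD105, had 5.63 ± 2.31 and Thy1, or CD90, 0 UMIs. Lepr, the leptin receptor that marks adult marrow stroma, Icam1 and Bst1 also had 0 UMIs, and Ngfr had 1.

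Fibroblast genes had the highest median of the identity lists: 23 of 24 reached 10 CPM, with a median of 634 CPM. Besides Lgals1 and Col3a1 the list held the calcium-binding protein S100a6 at 2875 ± 653, the matrix protein Sparc at 2403 ± 457, the collagen-binding proteoglycan Dcn at 2091 ± 96.7 and Col1a2 of type I collagen at 2030 ± 252 CPM. Fap, the fibroblast activation protein, was the exception with 3 UMIs in 27338586. The summed level of the list ran from 33579 CPM in replicate 12 to 43435 in replicate 2, with a median of 38558.

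Contractile genes were present in part. Of 16 genes of smooth muscle and pericytes 11 reached 1 CPM and 8 reached 10 CPM. Cald1 and Tpm1, which encode actin-binding proteins of many cell types, stood at 1220 ± 149 and 571 ± 54.1 CPM, and Acta2, the smooth muscle actin, at 481 ± 73.6. Tagln, which often accompanies Acta2, had 13.6 ± 3.84 CPM. Smtn, the cytoskeletal protein smoothelin of smooth muscle, had 54.8 ± 7.96 and Actg2, the enteric smooth muscle actin, 16.4 ± 4.87 CPM. Other genes of mature smooth muscle and pericytes were at or near 0, with 1 UMI for the myosin gene Myh11, 1 for the calponin gene Cnn1, 4 for Rgs5 and 0 for the channel gene Kcnj8.

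Programmes of other mesenchymal fates were not complete. Of 16 osteoblast genes 6 reached 1 CPM (10 reached 0.5 CPM) and 2 reached 10 CPM, namely Spp1 and Runx2, the factor that starts bone formation, at 15.1 ± 4.39. Sp7, which acts after Runx2, had 1 UMI, the alkaline phosphatase gene Alpl 2 and the bone sialoprotein gene Ibsp 2, while the osteocalcin genes Bglap and Bglap2, near-identical copies whose split is uncertain, had 1.5 and 3.08 CPM. Of 9 chondrocyte genes 4 reached 1 CPM. Sox9, the master regulator of cartilage, was at 158 ± 29.5 CPM, between 115 and 209, but Col2a1, its main target in cartilage, had 3 UMIs, and Acan had no row in the table and is not analysed here. Of 11 adipocyte genes 7 reached 1 CPM, near the 58.6% of all genes. Lpl, which frees fatty acids from lipoproteins, stood at 246 ± 75.5 CPM and lay between 354 and 386 in replicates 1 to 4 and between 177 and 239 in the others. Pparg, the adipocyte regulator, had 11.1 ± 3.78 and the fatty acid carrier Fabp4 3.85 ± 2.33 CPM, and the adipokine gene Adipoq had 2 UMIs. Of 10 genes of hepatic stellate cells, the vitamin A-storing stroma of the liver, 4 reached 1 CPM, among them the matrix gene Ecm1 at 1130 ± 171, Des at 9.34 and Hgf at 7.00 CPM. Lrat, which makes the stored retinyl ester, and the stellate genes Reln and Lhx2 had no row in the table and are not analysed here.

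Markers of parenchymal and blood cells were at or near 0. None of 9 hepatocyte genes reached 1 CPM, with a summed level between 0 and 3.18 CPM. Afp, the fetal albumin, had 3 UMIs and the apolipoprotein gene Apoa2, the highest of the list, 6. Of 12 epithelial genes 5 reached 1 CPM and none 10 CPM. These were keratins, with Krt7 at 2.59 ± 1.52 and Krt8 at 1.73 CPM, while the junction gene Cdh1 had 4 UMIs and Epcam 0. Krt7, Krt19 and Krt14 were each highest in replicate 14, at 6.53, 7.08 and 4.35 CPM. Of 11 endothelial genes 2 reached 1 CPM, Egfl7 at 7.22 ± 2.08 and Eng, which is also a stromal gene. Pecam1 and Cdh5, the defining endothelial junction genes, had 2 UMIs and 1.

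Blood lineage genes followed the same pattern. Ptprc, the pan-leukocyte phosphatase CD45, had 1 UMI in all libraries, and Spi1, the myeloid regulator PU.1, had 0. Of 11 pan-leukocyte genes 3 reached 1 CPM: the tetraspanin Cd53 at 7.29 ± 2.11, the phosphatase Ptpn6 at 3.53 and the actin regulator Coro1a at 2.48 CPM. The summed level of the list is given with the spread below. Of 9 macrophage genes 3 reached 1 CPM, Cd14 at 8.16, the lysosomal protein Cd68 at 8.02 and the integrin Itgam at 5.56 CPM, but Adgre1, the F4/80 antigen, had 0 UMIs and Csf1r stood at 0.821 CPM. Of 10 erythroid genes Epor and the alpha globin genes Hba-a1 and Hba-a2, which share most of their sequence, reached 1 CPM, while Hbb-bs and Alas2 had 0 UMIs. Of 4 lymphocyte genes only Lck passed 1 CPM, at 2.11 ± 1.2.

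Skeletal muscle, neural and mesothelial lists each held a gene above 10 CPM. Pax3, a regulator of somite-derived muscle and of neural crest, lay between 25.1 and 42.8 CPM with a median of 33.6. No spread of Pax3 beyond counting error was detected (chi-square test of heterogeneity, adjusted p = 0.40), and its estimate was 0.052 of the mean. The myogenic genes Myf5, Myh3 and Actn2 had 0 UMIs. Tubb3, a tubulin of neurons that dividing cells also carry, stood at 21.4 ± 4.70 CPM, and Nefl and Sox2 had 0 UMIs. The mesothelial list held Msln, the mesothelin gene, at 268 ± 49.1 and Wt1 at 10.4 ± 4.62 CPM, while Upk3b and Bnc1 had 1 UMI and 2. Genes of the Y chromosome were present (Eif2s3y 83.2 ± 8.49, Ddx3y 30.2 ± 5.53 CPM) and Xist had 0 UMIs.

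**Figure D3:**
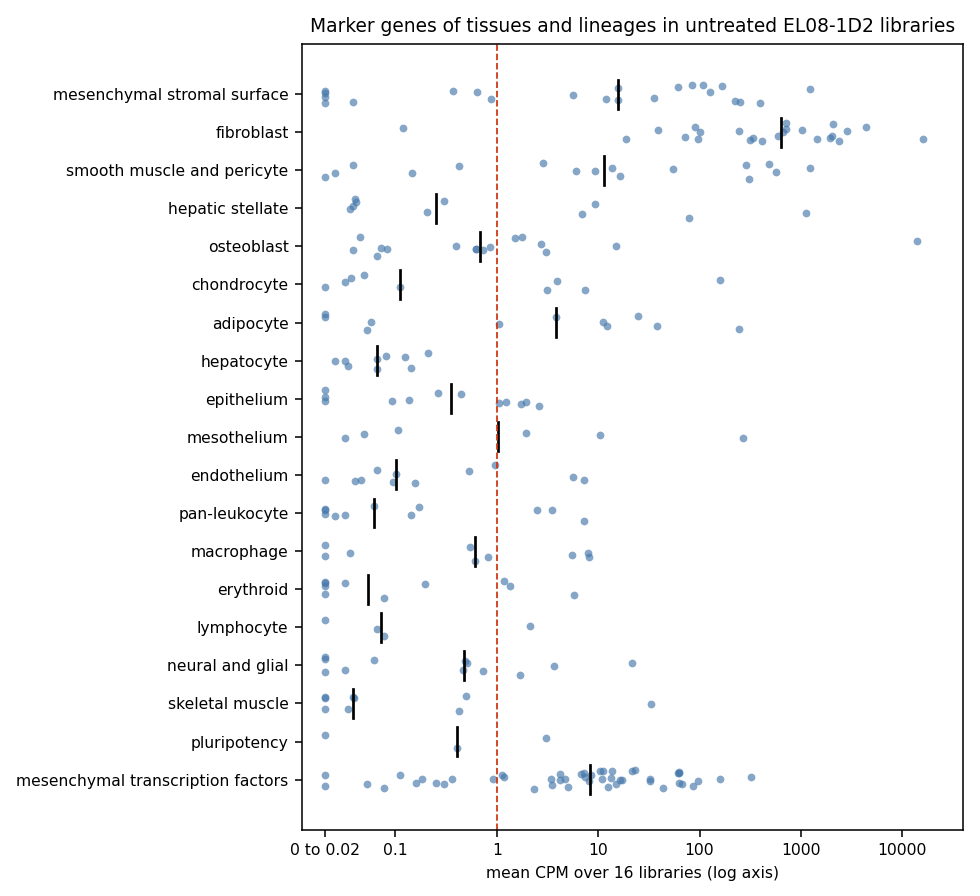
Mean CPM over 16 libraries (log axis) of the marker genes of each tissue or lineage that the table holds. Points are genes, with those under 0.02 CPM drawn at the left edge, black bars are medians and the dashed line is 1 CPM; the fibroblast median is 634 CPM, and the medians of the hepatocyte, endothelial, erythroid and leukocyte lists lie at or below 0.10 CPM.

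Transcription factors of mesenchyme were mostly detected. Of 48 in the table, 37 reached 1 CPM and 23 reached 10 CPM, with a median of 8.24 CPM. Osr1, a factor of early intermediate and lateral mesoderm, was the highest by CPM and per kilobase, between 228 and 569 with a median of 299 CPM, and its relative Osr2 stood at 63.0 ± 15.0. Snai2, Snai1, Zeb1 and Prrx1, factors of the mesenchymal state, had 96.6 ± 14.7, 62.4, 62.6 ± 12.4 and 85.4 ± 13.0 CPM. Gata4, a factor of liver mesenchyme, stood at 1.18 CPM. Hand1 and Nkx3-2 had 0 UMIs.

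Receptor tyrosine kinases for platelet-derived, fibroblast and hepatocyte growth factors and for collagen were expressed. Of 37 in the table, 22 reached 1 CPM and 14 reached 10 CPM, with a median of 3.30 CPM. These counts were near the shares of all genes (58.6% and 36.1%), so the list as a whole did not stand out. Axl, which binds Gas6, led by CPM and per kilobase and ran from 248 to 435 CPM with a median of 358. Met, the receptor of hepatocyte growth factor, had 110 ± 22.4, the collagen receptor Ddr2 109 ± 17.8 and Fgfr1 67.7 ± 9.34 CPM. Igf1r was low at 3.70 CPM, and Flt3, Tek and Ltk, receptors of blood, endothelial and neural cells, had 2, 0 and 0 UMIs. The ligand of Axl was expressed too, with Gas6 at 41.5 ± 17.8 and the related Pros1 at 45.8 CPM.

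Receptors of developmental pathways had medians of 6.42 CPM (TGF-beta and BMP), 3.91 CPM (Notch and Hedgehog) and 1.74 CPM (Wnt). Of 13 TGF-beta and BMP receptors 9 reached 1 CPM, with the co-receptor Tgfbr3 at 145 ± 22.4, Tgfbr2 at 42.2 ± 6.57 and Tgfbr1 at 29.0 ± 6.10 CPM, while the BMP receptors Bmpr1a and Bmpr2 stood at 10.2 CPM and at 13 UMIs in all. Of 19 Wnt receptors 11 reached 1 CPM, near the 58.6% of all genes. The highest were Fzd2 at 34.3 ± 14.9, Fzd1 at 26.4 ± 4.94 and Ryk at 23.6 ± 5.00. Fzd2 and the co-receptor Lrp6 were highest in replicate 1, at 86.6 and 47.3 CPM, against medians of 30.3 and 7.82. Of 10 Notch and Hedgehog receptors 8 reached 1 CPM, but only the Hedgehog co-receptor Gas1 reached 10 CPM, at 89.3 ± 24.8. Notch2 and Notch3 had 8.95 and 6.02 CPM, and Ptch1, a receptor and a target of Hedgehog, had 6 UMIs.

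Cytokine receptors had the highest median of the 10 receptor lists. Of 37 in the table, 28 reached 1 CPM and 24 reached 10 CPM, with a median of 21.7 CPM. Il1rl1, the receptor of interleukin 33, ran from 424 in replicate 8 to 1256 in replicate 12 with a median of 716 CPM. Tnfrsf12a, the receptor of TWEAK, had 547 ± 65.5, and it exceeded Il1rl1 per kilobase of exon. Ghr, the growth hormone receptor, stood at 230 ± 25.3, and Il11ra1 with its shared signal chain Il6st at 154 ± 27.9 and 126 ± 29.5 CPM. The chains of the interferon receptors were all present, with Ifnar1 at 61.8, Ifnar2 at 86.6, Ifngr1 at 81.0 and Ifngr2 at 79.5 CPM. Il7r and Il18r1 had 0 UMIs. Ligands of the leading receptors were low: Il33 had 18.1 ± 7.18, Tnfsf12, which encodes TWEAK, 11.3 CPM and Il11 9 UMIs.

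Chemokine receptors were nearly absent from the counts. Of 15 in the table, 1 reached 1 CPM, Ackr3, a scavenging receptor of Cxcl12, at 14.1 ± 3.25 CPM. Cxcr4, the signalling receptor of Cxcl12, had 0 UMIs, as had Ccr2, Cxcr2 and Cxcr3. Toll-like receptors and their partners were low, with 6 of 9 at 1 CPM and only Tlr2 at 10 CPM, between 12.7 and 24.4 with a median of 18.1. No spread of Tlr2 beyond counting error was detected (chi-square test of heterogeneity, adjusted p = 0.74). Tlr4, the endotoxin receptor, and its partners Cd14 and Ly96 had 5.44, 8.16 and 4.09 CPM.

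Integrins were led by the fibronectin receptor. Of 24 in the table, 15 reached 1 CPM and 8 reached 10 CPM, near the shares of all genes (58.6% and 36.1%). Itgb1, the common beta chain, had 108 ± 17 CPM, Itgb5 45.6 ± 6.92 and Itga5, which pairs with Itgb1, 35.7 ± 6.68. Itgb2, the beta chain of leukocyte integrins, stood at 13.6 ± 4.01 CPM, and of its alpha partners Itgam had 5.56 CPM and Itgal 0 UMIs. Of 31 G protein-coupled receptors for lipids, peptides and nucleotides 18 reached 1 CPM and 11 reached 10 CPM, again near those shares. Those for lysophospholipids came first, with Lpar1 at 170 ± 27.6, S1pr1 at 131 ± 29.4, S1pr3 at 113 ± 15.6 and S1pr2 at 80.7 ± 9.40, before the thrombin receptor F2r at 58.1 ± 13.2 CPM. Of 34 nuclear receptors 27 reached 1 CPM and 14 reached 10 CPM. Rarg, a retinoic acid receptor, led at 152 ± 9.71 with no spread detected beyond counting error (chi-square test of heterogeneity, adjusted p = 0.35), and Rara stood at 54.3 ± 8.48 CPM.

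Factors of the haematopoietic niche were present in majority. Of 29 in the table, 21 reached 1 CPM and 15 reached 10 CPM, against 58.6% and 36.1% of all genes. Their median was 12.6 CPM. After Spp1 and Cxcl12 came the Wnt antagonist Sfrp1, which ran from 157 in replicate 12 to 639 in replicate 2 with a median of 239 CPM. Angptl2, a secreted factor that supports stem cells in culture, had 178 ± 16.5, the macrophage growth factor Csf1 170 ± 30.0 and pleiotrophin (Ptn) 107 CPM. Kitl, the ligand of Kit and the best known of the niche factors, had 81.6 ± 22.1 CPM, from 54.8 in replicate 1 to 142 in replicate 4. The other classical cytokines of blood formation were low or at the floor, with Il7 at 2.97, Lif at 3.72 and Il6 at 1.23 CPM, and Csf2, Thpo and Il11 with 5, 2 and 9 UMIs. Dlk1, a marker of fetal liver progenitors, had 0 UMIs.

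Chemokines that draw monocytes accompanied Cxcl12. Of 29 in the table, 15 reached 1 CPM and 10 reached 10 CPM, near the shares of all genes (58.6% and 36.1%). Ccl8 and Ccl7 had 485 ± 81.5 and 484 ± 81.9 CPM and could not be ordered, and Ccl2 had 342 ± 44.0. Per kilobase of exon Ccl8, Ccl7 and Ccl2 exceeded Cxcl12. Cx3cl1, a membrane-bound chemokine, stood at 72.8 ± 11.6, and the neutrophil attractants Cxcl5 and Cxcl1 at 43.0 ± 10.7 and 42.7 ± 10.8 CPM, while Cxcl2, Cxcl3 and Cxcl9 had 0 UMIs. Of 33 interleukins and related cytokines 16 reached 1 CPM, below the 58.6% of all genes, and 7 reached 10 CPM, below the 36.1%. Besides Mif and Csf1 these were Il1rn, the antagonist of interleukin 1, at 412 ± 104 CPM, Il2 at 32.6 ± 4.49, Il34, another ligand of the Csf1 receptor, at 25.6 ± 4.36, Il33 and Tnfsf12. Il2, the T cell growth factor, lay between 26.0 and 41.3 CPM in each library, with no spread detected beyond counting error (chi-square test of heterogeneity, adjusted p = 0.58). Tnf, Osm and Ifnb1 had 0 UMIs.

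Growth factors covered several families. Of 48 in the table, 36 reached 1 CPM and 28 reached 10 CPM, with a median of 17.5 CPM. Grn (progranulin) ran from 866 to 1654 with a median of 1023, Manf, a stress-induced neurotrophic factor, had 479 ± 73.9 and Hdgf 207 ± 33.2 CPM. The matricellular genes Ccn1, Ccn5 and Ccn4 stood at 218 ± 83.2, 193 ± 31.8 and 136 ± 11.9. Of the vascular factors Vegfb had 52.7, Vegfd 37.1, Angpt1 36.6, Vegfa 29.8 ± 20.7 and Angpt2 28.5 CPM. Fgf7 and Fgf10, which act on epithelia, had 20.5 and 10.8 CPM, and Hgf, which is made by liver stroma, 7.00 ± 3.85. Igf2, the dominant insulin-like factor of fetal tissue, was at 2.84 CPM, below Igf1 at 42.3 ± 15.5.

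The highest members of the TGF-beta and Wnt families were antagonists. Of 30 TGF-beta family genes 20 reached 1 CPM and 12 reached 10 CPM, near the shares of all genes (58.6% and 36.1%). Fstl1, a follistatin relative, ran from 351 in replicate 1 to 779 in replicate 12 with a median of 620 CPM. Grem1, an inhibitor of BMPs, had 538 ± 60.5 CPM and led per kilobase of exon, and Fstl3, an inhibitor of activin, had 137 ± 21.5. The highest ligands were Tgfb3 at 34.7 ± 5.32, Inhba at 21.8 ± 5.99 and Bmp4 at 12.6 ± 5.59. Among 24 Wnt ligands and antagonists 10 reached 1 CPM, with the antagonists Sfrp1 and Sfrp2 at 279 ± 134 and 112 ± 46.7 CPM and the ligands Wnt5a and Wnt2 at 18.6 ± 5.05 and 12.7 ± 3.90. Of 8 Notch and Hedgehog ligands 2 reached 1 CPM, Dlk2 at 1.71 and Jag1 at 1.35 CPM. Of 10 genes of insulin-like growth factor binding 7 reached 1 CPM. Igfbp4 and Igfbp6 had 500 ± 213 and 276 ± 118 CPM and were highest in replicate 1, at 1183 and 643.

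Collagens of the interstitial fibre and of the microfibril dominated their family. Of 36 in the table, 22 reached 1 CPM, near the 58.6% of all genes, and 17 reached 10 CPM, against 36.1% of all genes. Their summed level was between 8200 and 12067 CPM. Col1a2 and Col1a1 of type I collagen stood at 2030 ± 252 and 1030 ± 200, Col6a1 of the beaded microfibril at 717 ± 91.3 and Col5a2, which sets fibre width, at 317 ± 50.8 CPM. The basement membrane chains Col4a1 and Col4a2 had 272 ± 41.4 and 153 CPM. Col13a1 had 0 UMIs and the cartilage collagen Col11a1 7.36 ± 3.20 CPM.

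Matrix glycoproteins had the highest median of the 12 secreted lists. Of 53 in the table, 45 reached 1 CPM and 36 reached 10 CPM, with a median of 58.5 CPM. Biglycan (Bgn) had 1436 ± 209, fibulin 2 (Fbln2) 1227 ± 131, Efemp1 of the fibulin family 1062 ± 89.4 and fibronectin (Fn1) 671 ± 73.3 CPM. Laminin chains were led by Lamb1 at 147 CPM and Lama4 stood at 24.6, while Lamb3 of epithelial laminin had 0 UMIs. Vtn, the plasma protein vitronectin that hepatocytes secrete, also had 0 UMIs.

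Proteases of the lysosome and of the matrix came with their inhibitors. Of 43 in the table, 37 reached 1 CPM and 29 reached 10 CPM, with a median of 50.4 CPM. The cathepsins Ctsd and Ctsl had 1823 ± 251 and 1446 ± 345 CPM, and the collagen chaperone Serpinh1 2237 ± 320. Mmp2, a gelatinase, stood at 1124 ± 163, its membrane-bound activator Mmp14 at 227 ± 138 and Mmp11 at 548. The antiangiogenic factor Serpinf1 had 860 ± 112 and the metalloproteinase inhibitor Timp1 436 ± 71.2 CPM. Among 16 complement and acute phase genes 11 reached 1 CPM, against the 58.6% of all genes. The chaperone clusterin (Clu) had 241 ± 62.7 CPM and the proteases C1s1 and C1ra 169 ± 34.6 and 155 ± 33.0. C3 lay between 65.7 and 214 with a median of 125 CPM.

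Spread between the untreated libraries went beyond counting error in many genes and was mostly small. Of 10804 genes that averaged 5 UMIs or more per library 5293 (49.0%) varied more than counting allows (chi-square test of heterogeneity with 15 degrees of freedom, Benjamini-Hochberg adjusted p under 0.05). The coefficient of variation that remained after counting error was removed had a median of 0.116 over the 7420 genes averaging 20 UMIs or more, with quartiles of 0.068 and 0.174, and it was 0 for 864. It reached 0.5 in 78 genes. Without replicates 1 and 2 the test called 3376 of 10544 genes (32%), the median was 0.0949 and 9 genes reached 0.5. With spike-in RNA in place of the library total 9577 genes were called and the median rose to 0.297.

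The 24 genes with the largest coefficients were all high in replicates 1 and 2. In each of the 24 both libraries lay above all 14 others, and 22 were highest in replicate 1 and 2 in replicate 2. Gatad2b, a subunit of the NuRD chromatin complex (ENSMUSG00000042390, chromosome 3, 90293178 to 90363407), had 188 and 284 CPM there and between 7.34 and 97.0 in the others, where the median was 14.8. Gnai2, an inhibitory G protein subunit (ENSMUSG00000032562, chromosome 9, 107614125 to 107635367), had 1221 and 568 CPM against 47.6 to 132. Eea1, a tether of early endosomes, had 457 and 377 against 33.9 to 70.9, and Nipbl, the loader of cohesin, 216 and 123 against 16.9 to 35.6. The Wnt co-receptor Lrp6 (47.3 and 31.0 against 4.03 to 11.0), the transcription factor Sox4 (227 and 153 against 22.8 to 66.1), the kinetochore motor Cenpe (94.4 and 123 against 6.35 to 31.8) and the proteasome subunit Psmb7 (155 and 104 against 26.4 to 39.8) showed the same order. The coefficients of the 24 ran from 1.56 (Gatad2b) to 0.731 (Psmb7), and those of Zbtb20, Yaf2 and Igfbp7, just below, were 0.730, 0.724 and 0.719. Without replicates 1 and 2 the median coefficient of the 24 was 0.183, and only Gatad2b was again among the 24 largest. Their median exon length was 4541 bases against 4047 for all genes with a coefficient. Replicates 1 and 2 held 3210801 and 2455232 UMIs and the largest ribosomal protein shares, 6.56% and 6.24%. Replicate 10, below both in each of the 24 genes, held 2489108 UMIs, with a share of 5.78%. The part of library size and of ribosomal share in the result was not tested.

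Some secreted and niche genes also differed between these 2 libraries and the rest. Vegfa had 99 and 51.3 CPM in replicates 1 and 2 against 12.2 to 34.9 in the others, Igfbp7, a secreted binding protein of matrix and vessels, 146 and 98.2 against 18.3 to 53.4, and the membrane protease gene Mmp14 was highest in replicate 1 at 685 against a median of 187. Mgp, an inhibitor of matrix calcification, reached 180 CPM in replicate 1 with a median of 53.9, and S100a4 1628 with a median of 653. Spp1 went the other way, with 8476 and 9859 CPM against 10066 to 18460.

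**Figure D4:**
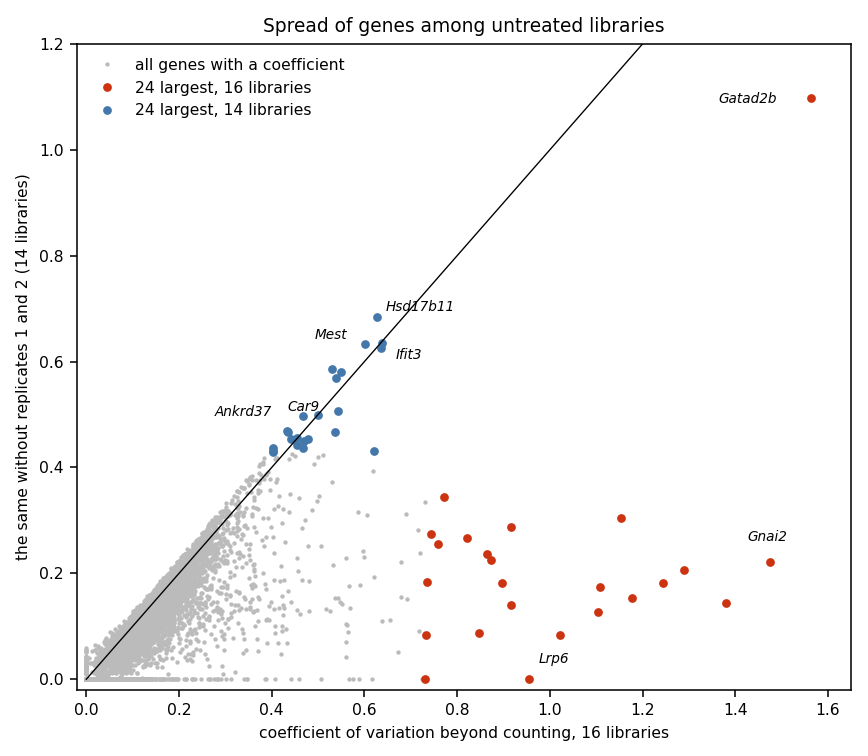
Coefficient of variation beyond counting error of 7420 genes over 16 libraries (horizontal) and over the 14 left without replicates 1 and 2 (vertical), with the line of equality. The 24 genes with the largest values over 16 libraries (red) fall to a median of 0.183 over 14, with Gatad2b still at 1.10, while the genes largest over 14 libraries (blue) lie near the line.

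The summed level of interferon-stimulated genes was highest in replicates 5 to 8. Of 42 in the table, 38 reached 1 CPM and 25 reached 10 CPM, and 28 of the 33 with enough UMIs varied beyond counting error, against 49.0% of all genes tested. The share called rose with the count, and it was 63.4% among genes averaging 20 UMIs or more. The summed level of the interferon list was between 2367 and 2780 CPM in replicates 5 to 8 and between 1642 and 2085 in the other 12. Ifit3, which binds Ifit1 and stabilises its grip on foreign RNA (ENSMUSG00000074896, chromosome 19, 34583531 to 34588731), had 50.1 to 96.7 CPM in replicates 5 to 8 and 19.5 to 49.8 in the others; it shares much of its sequence with Ifit3b, so that the split between them is uncertain. Ifit1 itself had 57.2 to 88.7 CPM in replicates 5 to 8 and 22.4 to 66.7 elsewhere, and the value of 66.7 was that of the run of 9 to 12. Rtp4 (50.8 to 58.0 against 18.5 to 40.2), Irf7, a transcription factor of the interferon response (29.7 to 43.2 against 12.7 to 17.2), and Irf9, its partner in the STAT complex (55.9 to 84.4 against 32.8 to 51.9), were likewise higher in each of replicates 5 to 8 than in any other library. Ifitm3, the highest gene of the list, overlapped, with 805 to 977 in replicates 5 to 8 and 980 in replicate 1. Ifnb1, an interferon gene, had 0 UMIs.

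The start regions of these genes are shown because the interferon-stimulated response element is defined by sequence. The 250 bases before the start site in RefSeq (GRCm38.p6) follow for Ifit3 (chr19:34583279-34583528, plus strand), Ifit1 (chr19:34640639-34640888, plus strand) and Irf7 (chr7:141266425-141266674, minus strand), with matches to GAAA, any 2 bases and GAAA on either strand in capitals.
Ifit3: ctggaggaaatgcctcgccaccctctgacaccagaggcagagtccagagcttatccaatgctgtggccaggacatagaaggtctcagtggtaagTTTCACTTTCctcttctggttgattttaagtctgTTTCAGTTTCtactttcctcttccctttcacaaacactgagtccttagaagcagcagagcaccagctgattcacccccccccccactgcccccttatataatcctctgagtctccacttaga
Ifit1: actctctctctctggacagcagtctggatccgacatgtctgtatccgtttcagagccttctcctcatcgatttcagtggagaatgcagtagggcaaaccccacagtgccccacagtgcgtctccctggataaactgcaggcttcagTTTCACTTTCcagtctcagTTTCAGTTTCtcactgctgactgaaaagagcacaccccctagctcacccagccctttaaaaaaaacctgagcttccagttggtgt
Irf7: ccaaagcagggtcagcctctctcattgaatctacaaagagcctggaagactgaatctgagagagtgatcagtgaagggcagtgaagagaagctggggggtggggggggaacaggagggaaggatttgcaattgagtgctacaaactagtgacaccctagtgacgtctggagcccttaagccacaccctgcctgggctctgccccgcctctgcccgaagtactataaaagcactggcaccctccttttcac
Ifit3 and Ifit1 each held 2 matches, which read TTTCACTTTC and TTTCAGTTTC in both genes and lay 156 and 122 bases before the start site of Ifit3 and 104 and 85 bases before that of Ifit1. Irf7 held none, which says only that these letters are not in this window. In windows of 300 bases, 250 before and 50 after the start, 3.44% of 32851 promoters held the motif, against 42.9% (15 of 35) of those of the interferon list, which had entries for 30 genes. Rtp4 had no entry.

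Hypoxia and glycolysis genes were low in the same 4 libraries. Of 26 in the table, 25 reached 1 CPM, and 24 of 25 with enough UMIs varied beyond counting error, again against 49.0% of all genes tested. The list is abundant, with a median of 210 CPM, and lists with higher medians were called as fully. These were the fibroblast list (634 CPM) and the unfolded protein and amino acid stress list (284 CPM), with 23 of 23 each. The summed level of the hypoxia and glycolysis list was between 12371 and 16089 CPM in replicates 5 to 8, between 16578 and 17421 in 1 to 4 and between 19546 and 20906 in 9 to 16. Ankrd37, a target of hypoxia-inducible factor (ENSMUSG00000050914, chromosome 8, 45996902 to 46005707), had 18.9 to 36.7 CPM in replicates 5 to 8, 74.1 to 91 in 1 to 4 and 86.0 to 143 in 9 to 16. Adm, the vasodilator adrenomedullin, had 28.0 to 42.8, 44.5 to 55.5 and 76.1 to 95.6 CPM in the same sets, so that none overlapped. Ldha and Pkm, which carry glycolysis to lactate, had 1436 to 1952 and 2137 to 2680 in replicates 5 to 8 and at least 2210 and 2657 elsewhere. Car9, a carbonic anhydrase of the cell surface, differed in its pattern, with 3.91 to 14.3 CPM in replicates 1 to 8 and 10.6 to 30.4 in 9 to 16. The same 250 bases are shown for Ankrd37 (chr8:45999851-46000100, minus strand) and Car9 (chr4:43506776-43507025, plus strand), with matches to ACGTG and GCGTG, the core of the hypoxia response element, on either strand in capitals.
Ankrd37: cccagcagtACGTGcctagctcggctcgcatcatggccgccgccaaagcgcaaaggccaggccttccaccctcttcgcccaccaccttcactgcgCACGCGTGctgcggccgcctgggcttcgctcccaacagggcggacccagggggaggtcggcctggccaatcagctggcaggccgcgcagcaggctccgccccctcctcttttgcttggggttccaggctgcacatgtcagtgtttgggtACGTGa
Car9: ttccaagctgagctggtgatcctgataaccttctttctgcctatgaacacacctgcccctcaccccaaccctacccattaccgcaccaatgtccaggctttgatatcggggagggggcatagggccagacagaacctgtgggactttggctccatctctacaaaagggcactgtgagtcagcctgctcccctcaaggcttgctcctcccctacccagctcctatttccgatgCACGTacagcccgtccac
Ankrd37 held 4 matches, 2 of which overlap, and Car9 held 1, 18 bases before its start site. So short a motif is common: 43.8% of the 32851 windows of 300 bases held it, against 79.4% (27 of 34) of those of the hypoxia list, which had entries for 25 genes.

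Replicates 1 to 8 and 9 to 16 were separated by several genes with no overlap. The second principal component over the 16 libraries, which held 12.9% of the variance, separated them as well. Its scores ran from 0.065 to 0.411 in replicates 1 to 8 and from -0.353 to -0.107 in 9 to 16. The component was computed over genes that include those named here, and the weight of each gene in it was not examined. How many of all genes separate in this way was not counted, so whether the named genes stand out is not known. Mest, an imprinted gene of mesoderm (ENSMUSG00000051855, chromosome 6, 30723547 to 30748465), had 53.7 to 81.0 CPM in replicates 1 to 8 and 13.7 to 22.3 in 9 to 16. Postn, the matricellular protein periostin, had 112 to 181 against 48.2 to 66.3. Cxcl12 had 819 to 996 against 548 to 750, and Spp1 ran in the opposite sense, with 8476 to 14149 against 14711 to 18460. Genes of mitosis moved in the sense of Mest: their summed level was 1131 to 1282 CPM in replicates 1 to 8 and 877 to 959 in 9 to 16, with Birc5, a protein of the dividing chromosome, at 83.5 to 122 against 58.4 to 74.1 and Cdk1 at 78.0 to 90.4 against 58.0 to 72.9. Enzymes of cholesterol synthesis moved in the sense of Spp1, with a summed level of 2304 to 2924 against 3140 to 4169 CPM. Hmgcs1, at the entry of that pathway, reached 173 to 216 CPM in replicates 13 to 16 and at most 164 elsewhere. These sets were read from the replicate numbers after the values were seen, the labels give them no meaning, and no test was made of them.

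Some genes of the serum response were highest in replicates 13 to 16. Ccn1 and Ccn2, targets of the YAP coactivator, had 316 to 384 and 49.1 to 70.2 CPM there and at most 285 and 34.8 in the others. Acta2 had 583 to 606 CPM against 376 to 490. Ier2, an immediate early gene, was high in 2 runs, with 161 to 214 CPM in replicates 1 to 4 and 187 to 260 in 13 to 16 against 69.8 to 115 in the others, and Egr1, another, was lowest in replicates 9 to 12 at 102 to 122. As a list the immediate early genes were less distinct: their sum was 2060 to 2462 CPM in replicates 13 to 16 and 1819 to 2338 in replicates 1 to 4, which overlap. The summed serum response and YAP targets did not overlap, with 14990 to 16159 CPM in replicates 13 to 16 and up to 14902 in the others. Most of that sum, which had a mean of 13972 CPM, was Actb at a mean of 8725.

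A further set of 3 genes was low in the same 3 libraries, which lie in different runs. Among the 14 libraries other than replicates 1 and 2, the same libraries scored highest on the first principal component of log2(CPM + 1). Replicates 4, 9 and 12 scored 0.601, 0.375 and 0.263 on it, and it held 22.2% of the variance. Replicate 5 followed closely at 0.203, so the scores were graded and did not set the 3 libraries apart. The component was computed over genes that include these 3, and the weight of each gene in it was not examined. Lsm4, a protein of RNA decay and splicing particles (ENSMUSG00000031848, chromosome 8, 70673248 to 70678752), had 143, 131 and 163 CPM in replicates 4, 9 and 12 and between 552 and 891 in the other 13. Hsd17b11, a short-chain dehydrogenase, had 18.3, 20.1 and 19.8 CPM there and 36.5 to 246 elsewhere. Hyi, a putative hydroxypyruvate isomerase that the annotation types as a polymorphic pseudogene, had 24.4, 27.5 and 18.4 CPM there and 39.8 to 159 elsewhere. Replicates 4, 9 and 12 held 818619, 944433 and 1361195 UMIs, and replicates 8 and 16, where Lsm4 had 891 and 708 CPM, held 1277717 and 1182449. The part of library size in these values was not tested.

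**Figure D5:**
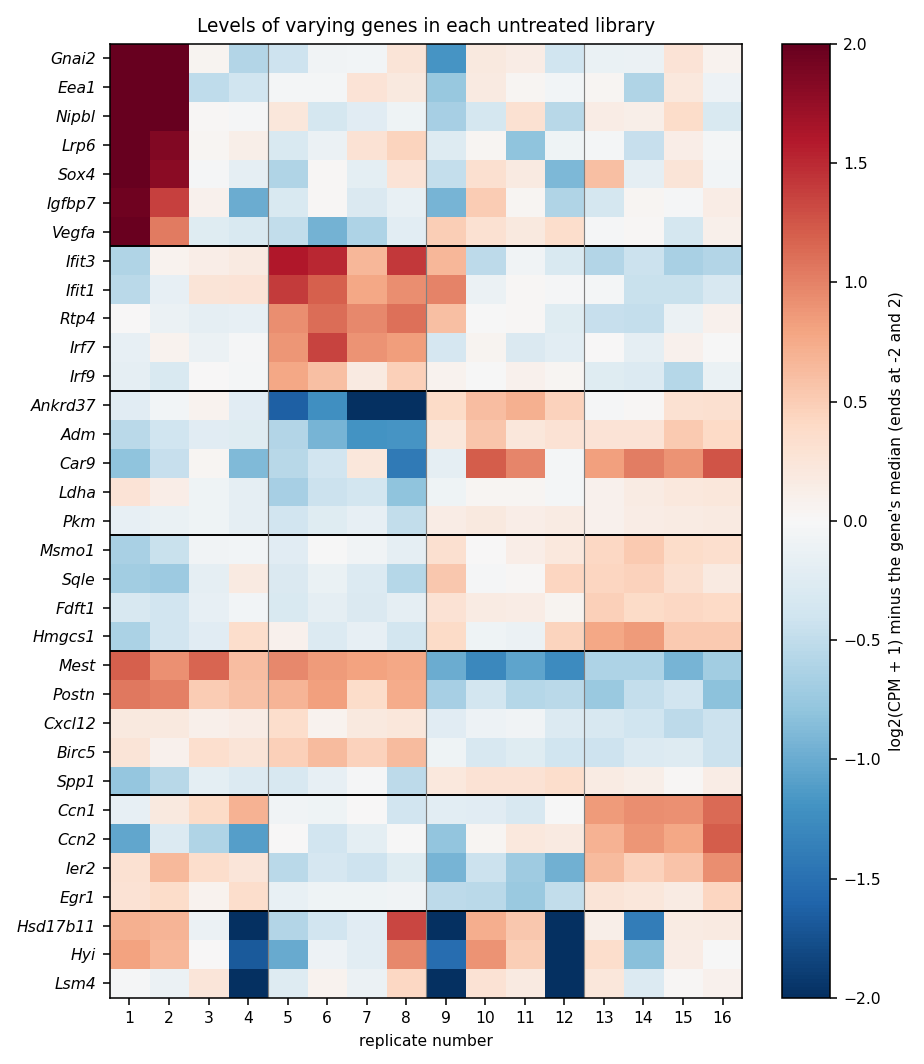
log2(CPM + 1) minus the gene's median over 16 libraries for 33 genes (rows) in each untreated library (columns, by replicate number), with colours ending at -2 and 2. Black lines separate the sets described in the text and grey lines the runs of 4 numbers; replicates 1 and 2 are high in the top set, replicates 5 to 8 are high in the interferon and low in the hypoxia set, and replicates 4, 9 and 12 are low in the bottom set.

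The summed levels of marker lists of other cell types were as follows. The epithelial list of 12 genes lay between 13.2 and 21.8 CPM in replicates 13 to 16 and between 4.41 and 10.6 in the others, with no overlap, while its defining genes Cdh1 and Epcam had 4 and 0 UMIs in all libraries together. The summed leukocyte list of 11 genes lay between 8.56 CPM (replicate 5) and 17.6 (replicate 11), and the endothelial list of 11 genes between 11.6 and 20.2. The macrophage list of 9 genes lay between 26.1 and 36.3 CPM in replicates 9 to 12 and between 16.4 and 27.7 in the others. The defining genes Ptprc, Adgre1 and Pecam1 stood at 1, 0 and 2 UMIs in all libraries together, and the part of these lists in the results above was not tested. Fewer cells of a type and less RNA per cell cannot be told apart in such bulk samples.

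The steadiest abundant genes included several of basic cell functions. Among 317 genes with at least 500 CPM the median coefficient was 0.120. Atp5c1, a subunit of the mitochondrial ATP synthase, had the smallest, 0.017, with 511 to 603 CPM in the 16 libraries. Dad1, of the complex that glycosylates proteins, followed at 0.030 (652 to 758 CPM), then Ergic3, a protein of early secretory vesicles, at 0.032 and Gabarap, a protein of autophagosomes, at 0.035 (1969 to 2243 CPM). Pomp, which assembles proteasomes, Sec61b of the protein channel and the cyclophilin Ppib of the endoplasmic reticulum had 0.040, 0.041 and 0.042. Dcn, of the stromal matrix, had 0.043, with 1885 to 2257 CPM.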

How the data were processed

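Total RNA of untreated EL08-1D2 libraries was reverse transcribed with UMI barcodes, pooled and pre-amplified, per the labels' protocols. The authors aligned reads with STAR 2.4.0 and used bedtools 2.17.0 on mm10, per the submitters' processing notes, and deposited raw UMI counts per gene. How UMIs were collapsed, strand and annotation are not given in the sources used here. Spike-in rows were left out and counts scaled to CPM by library total (Python 3.11.15, pandas 2.3.3, numpy 2.4.6). Positions and exon lengths came from GENCODE M21, and 21506 of 21829 gene IDs had a symbol. Spread was tested per gene by a Poisson chi-square test of heterogeneity (scipy 1.17.1) with Benjamini-Hochberg adjustment over all genes tested. Size factors of edgeR 4.0.16 and DESeq2 1.42.0 served as alternatives. In simulated counts for 10804 genes, 200 were given spread, 50 at each coefficient, and the rest had counting error only. The test called 16% of those given a coefficient of 0.1, 58% at 0.25 and 94% at 0.5. In this simulation 6.29% of its calls were false. Far more genes were called in the data (49.0%), so that share is not an error rate for the real calls.

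Named genes were the 25 highest, up to 6 highest and the defining members of each of 56 lists, the 24 most variable with a mean of at least 20 UMIs, up to 4 most variable per list and the 10 steadiest at 500 CPM or more. The members and lists were chosen with earlier results of these data known. Every pair of libraries differed beyond sampling noise (lowest chi-square per degree of freedom 1.15, replicates 6 and 7), so none was merged as a library deposited in duplicate. This does not show separate cultures. With 818619 to 3210801 UMIs a library, counting error is large for genes of a few CPM.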

Additional observations from a re-analysis of the deposited data

How the results depend on the processing

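No paired analysis was possible because all libraries described belong to 1 group and no groups were compared. Each alternative was scored only for whether a value moved, so a reversal could not be recorded. The differences between sets of replicate numbers were not put through the alternatives. Per kilobase of exon the 10 highest genes took 13.3% of the total in place of 8.99%, and the 100 highest 38.6% in place of 26.9%. At a line of 0.5 CPM in place of 1 CPM the count moved by over 1.5 times in 5 of 56 lists (osteoblast 6 to 10, endothelium 2 to 4, macrophage 3 to 6, neural and glial 3 to 5, chemokine receptors 1 to 2). At 2 CPM it did in 4 (epithelium 5 to 1, erythroid 3 to 1, Wnt receptors 11 to 6, Notch and Hedgehog ligands 2 to 0). Of 10804 genes 5293 varied beyond counting error. The number was 3376 of 10544 without replicates 1 and 2, 3106 of 9160 after thinning each library to 818619 UMIs, and 9577 with spike-in counts as library sizes, while TMM and DESeq2 sizes gave 4931 and 4971. The median coefficient, 0.116, became 0.108 with TMM and 0.109 with DESeq2 sizes, 0.0949 without replicates 1 and 2, 0.297 with spike-in counts as sizes, 0.137 by edgeR's tagwise dispersion and 0.0793 without the library farthest from each gene's median. Of the 24 genes with the largest coefficients 24 were shared with TMM and DESeq2 sizes, 21 after thinning, 20 with spike-in sizes, 14 without the farthest library and 1 without replicates 1 and 2. The cause of these changes was not tested.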

Other observations

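Some values fall outside the groups above. Gm42418, a gene known to overlap ribosomal RNA sequence, reached 2993 CPM in replicate 4, the smallest library, and lay between 625 and 1363 CPM in all others.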
